A study of Mus musculus with 2 samples.

Results

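The 7 genes described here, Ms4a4b, Ms4a4c, Ms4a4d, Ms4a6b, Ms4a6c, Ms4a6d and Ms4a1, belong to the Ms4a cluster on mouse chromosome 19, and all 7 were found by symbol among the 27179 genes of the count table. They were chosen by their ratios in this comparison, so their levels and ratios are a description and carry no test. The comparison is between T-ALL cells of mice given doxycycline (Dox) for 3 days, sorted as GFPmid, and T-ALL cells of untreated mice, sorted as GFPhigh. Both groups came from 1 primary mouse T cell acute lymphoblastic leukaemia, ALL65, carrying Vav-tTA and TRE-GFP-shIkaros, in which a tetracycline-regulated hairpin against Ikaros is driven in blood cells by the Vav promoter and linked to green fluorescent protein (GFP). Dox stops the hairpin and lets the cells' own Ikaros, a DNA-binding regulator of lymphoid development encoded by Ikzf1, return. The cells were sorted from spleens of leukaemic recipient mice, and the treatment and the sort gate cannot be told apart. There was 1 library per group, and so neither levels nor differences have a replicate check. In bulk RNA, more cells that transcribe a gene and more transcript per cell cannot be told apart.

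MS4A proteins cross the membrane several times and sit in the surface and internal membranes of blood cells. MS4A1, or CD20, marks B cells and is the target of therapeutic antibodies, and MS4A2 is the beta chain of the high-affinity IgE receptor of mast cells and basophils. In mouse T cells, MS4A4B has been reported to restrain proliferation and to associate with the costimulatory receptor GITR, and MS4A6B has also been reported to bind GITR. MS4A6D is known from mouse macrophages.

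The Dox library held 14457475 counts and the untreated library 7477988. Where a gene had 0 counts, a limit of 3 counts was set, or 0.211 CPM with Dox and 0.395 CPM untreated. The exact 95% upper bound of a count of 0 is 0.259 CPM with Dox and 0.485 CPM untreated. CPM, the count scaled for sequencing depth, is taken over the library size scaled by the trimmed mean of M values (TMM), and intervals are exact 95% intervals of counting error only. Ikzf1, the gene the hairpin targets, had 20702 counts with Dox and 1992 counts untreated, a log2 ratio of 2.47 (2.41 to 2.54). All 17 T cell identity genes looked for passed a mean of 1 CPM over the libraries and summed to 8642 CPM with Dox and 7190 CPM untreated, so the labelled cell type had its markers.

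The Ms4a genes that these cells transcribed formed a single stretch, and each member with a count there had a ratio above 0. Summed over the 20 Ms4a genes in the table, the family held 5437 counts or 382 CPM with Dox and 1238 counts or 163 CPM untreated, 2.35-fold more with Dox. A call was taken as a ratio of 2-fold or more with the higher library at 5 CPM or more. Of the 7 members, 3 passed the 5 CPM minimum, each in both libraries, and these 3, Ms4a4b, Ms4a6b and Ms4a6c, were at least 2-fold higher. Over all 10113 genes past the minimum, 2.21% passed 2-fold upwards and 2.24% downwards, and nothing is read from the members' count because this contrast chose them. The other members comprised 3 genes under 5 CPM in both libraries and Ms4a1, which had no count.

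**Figure D1:**
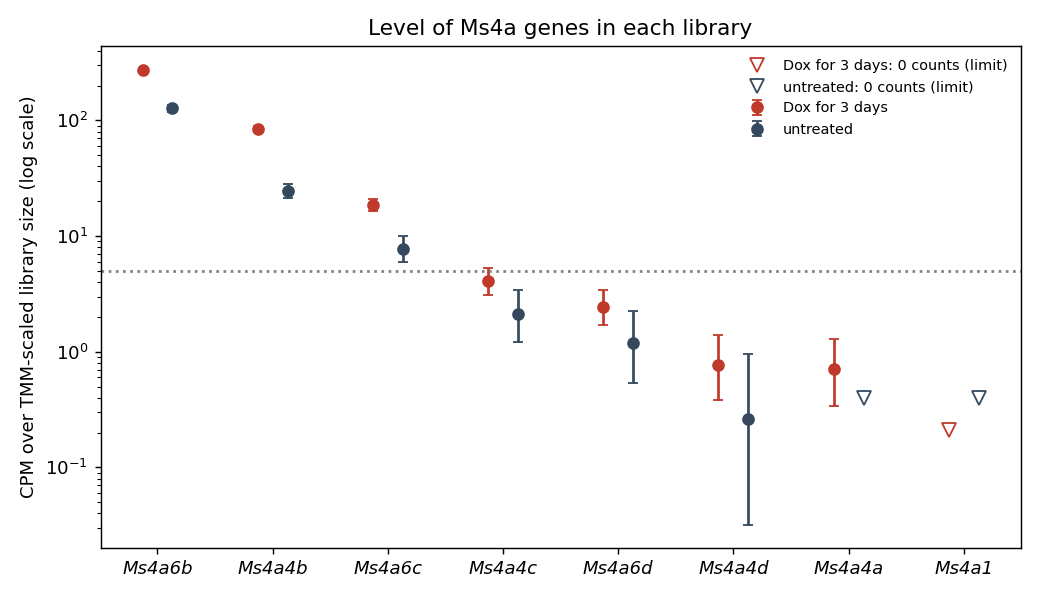
Level of the 7 members and of Ms4a4a in CPM on a log axis, with the Dox library to the left of the untreated library for each gene. Points are the single libraries, and bars are exact 95% Poisson intervals. Open triangles mark a limit of 3 counts where a gene had 0, and the dotted line is 5 CPM. Ms4a6b stands at 271 CPM with Dox and 127 CPM untreated, and Ms4a1 has 0 counts in both libraries.

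Ms4a4b and Ms4a6b, the members best known from T cells, held nearly all of the family's counts. Ms4a4b (Entrez Gene 60361, plus strand, chr19:11443558-11463549 in GRCm38.p6) had 1205 counts or 84.7 CPM with Dox and 187 counts or 24.6 CPM untreated. It stood 3.42-fold higher with Dox, a log2 ratio of 1.78 (1.56 to 2.01), and was 45th of the 10113 genes ordered by ratio. Ms4a6b (Entrez Gene 69774, plus strand, chr19:11518559-11530403) had 3855 counts or 271 CPM with Dox and 965 counts or 127 CPM untreated. Its ratio was 2.13-fold, or 1.09 on the log2 scale (0.99 to 1.20), with the lower bound just under 2-fold. The counting intervals of these ratios did not overlap.

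The family's makeup differed accordingly. Ms4a4b made up 22.2% (21.1% to 23.3%, exact binomial) of the family's counts with Dox and 15.1% (13.2% to 17.2%) untreated. Ms4a6b made up 70.9% (69.7% to 72.1%) with Dox and 77.9% (75.5% to 80.2%) untreated. Ms4a6c held 4.84% (4.28% to 5.44%) with Dox and 4.77% (3.65% to 6.10%) untreated, intervals that overlap.

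Ms4a6c (Entrez Gene 73656, plus strand, chr19:11469353-11487182) was the third member past 5 CPM. It had 263 counts or 18.5 CPM with Dox and 59 counts or 7.76 CPM untreated, a 2.35-fold ratio and a log2 ratio of 1.23 (0.84 to 1.68). Its interval reaches below 2-fold and overlaps that of Ms4a4b as well as that of Ms4a6b.

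The scarce members leaned the same way with wide intervals. Ms4a4c (Entrez Gene 64380, chr19:11404717-11427246) had 58 counts with Dox and 16 untreated, or 4.08 CPM with Dox and 2.11 CPM untreated. Its log2 ratio was 0.90 (0.14 to 1.85). Ms4a6d (Entrez Gene 68774, minus strand, chr19:11586606-11604804) had 35 counts with Dox and 9 untreated, or 2.46 CPM with Dox and 1.18 CPM untreated. Its log2 ratio was 0.95 (-0.03 to 2.30). Ms4a4d (Entrez Gene 66607, chr19:11536794-11558466) had 11 counts with Dox and 2 untreated, and its ratio of 1.10 spanned -0.64 to 4.77. For Ms4a6d and Ms4a4d a difference between the libraries was not detectable at this depth.

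**Figure D2:**
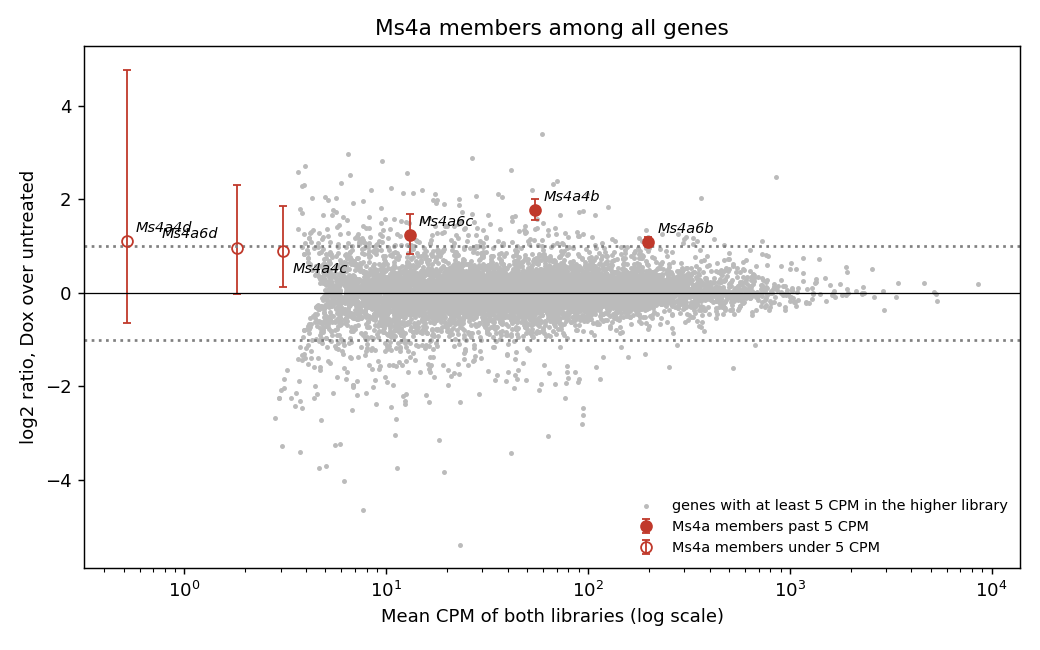
Log2 ratio of Dox over untreated against the mean CPM of both libraries on a log axis. Grey points are the 10113 genes past 5 CPM in the higher library, red points are Ms4a members with exact 95% counting intervals (open where under 5 CPM), and dotted lines mark 2-fold. Ms4a4b at 1.78 stands clear of the 2-fold line, while Ms4a6b at 1.09 and Ms4a6c at 1.23 lie just above it.

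Ms4a1, the CD20 gene, had 0 counts in both libraries. It lies at chr19:11249679-11266149. The other B cell genes looked for gave little signal: Pax5, Ebf1 and Igkc had 0 counts in both libraries, and 12 of 14 B cell markers were under 1 CPM. The exceptions were Vpreb3, at 3.59 CPM with Dox and 2.76 CPM untreated, and Ighm, whose locus is also transcribed in T lineage cells, at 519 CPM with Dox and 401 CPM untreated. The 14 markers summed to 524 CPM with Dox and 404 CPM untreated, almost wholly Ighm.

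Levels of different members were compared per kilobase of the gene length deposited with the counts. With Dox the order was Ms4a6b at 161 CPM per kilobase, Ms4a4b at 67.3, Ms4a6c at 9.01, Ms4a4c at 2.37, Ms4a6d at 1.79 and Ms4a4d at 0.528. In the untreated library it was the same, with 75.3 for Ms4a6b, 19.5 for Ms4a4b, 3.78 for Ms4a6c, 1.22 for Ms4a4c, 0.864 for Ms4a6d and 0.180 for Ms4a4d. Ms4a4c and Ms4a6d could not be told apart in either library, since their intervals overlapped (1.80 to 3.06 and 1.25 to 2.50 with Dox). Ms4a6d and Ms4a4d overlapped only in the untreated library. The gap between the leading members was 2.39-fold with Dox and 3.85-fold untreated. It depends on the length used, because GENCODE's longest Ms4a4b transcript has 4750 bases against the deposited 1259, and with the longest transcripts the gap is 5.67-fold with Dox and 9.15-fold untreated.

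**Figure D3:**
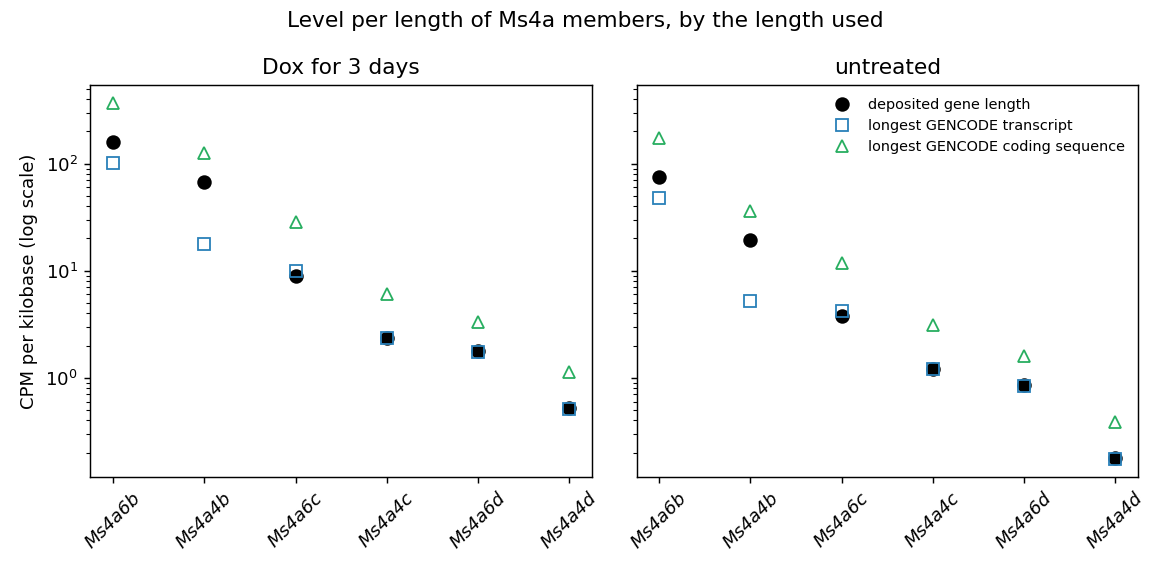
CPM per kilobase on a log axis for the 6 members with counts, in the Dox library (left) and the untreated library (right). Symbols give the deposited gene length, the longest GENCODE transcript and the longest GENCODE coding sequence. The order of the 6 genes is the same in both libraries under each length, while the level of Ms4a4b moves from 67.3 to 17.8 CPM per kilobase with Dox when the longest transcript is used.

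Members of a subgroup resemble each other in sequence, which matters for how reads are assigned. The coding sequences of Ms4a4b and Ms4a4c were identical at 91.7% of aligned bases, Ms4a4c and Ms4a4d at 87.9%, and Ms4a6b and Ms4a6c at 86.4%, whereas Ms4a4b and Ms4a6b matched at 61.7%. Of the 50-base words in each longest coding sequence, 12.4% of those of Ms4a4b, 13.7% of Ms4a4c, 7.61% of Ms4a6b and 9.63% of Ms4a6c also occur in transcripts of another gene. Counted over whole transcripts rather than coding sequence, the shared words of Ms4a4b recur mainly in Ms4a4c, and those of Ms4a6b in Ms4a6c. For Ms4a6b these were 109 words with Ms4a6c, 82 with BE692007 and 40 with Ms4a6d. Over the whole Ms4a6c transcripts the share is 56.9%, mostly with BE692007, a gene whose annotated span lies within that of Ms4a6c. For Ms4a6d, 5.78% of the coding words recur in another gene, all of them in the far more abundant Ms4a6b. For Ms4a4d the share is 1.28%, with Ms4a4c. The sources used here do not say how shared reads were counted. The values of Ms4a4c, Ms4a6c, Ms4a6d and Ms4a4d are thus uncertain, and those of the abundant members less so.

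The sequence just before the annotated start is also shared within the pairs. RefSeq promoter windows on GRCm38.p6 were found for 5 of the 7 members, and the 250 bases before the start are shown for the pairs that share sequence, with the longest run common to each pair in capitals. The start these windows are set on lies 2944 bases inside the gene span given above for Ms4a4c and 15 bases inside that for Ms4a6c, and at the first base of the span for Ms4a4b and Ms4a6b.
Ms4a4b, chr19:11443308-11443557, plus strand: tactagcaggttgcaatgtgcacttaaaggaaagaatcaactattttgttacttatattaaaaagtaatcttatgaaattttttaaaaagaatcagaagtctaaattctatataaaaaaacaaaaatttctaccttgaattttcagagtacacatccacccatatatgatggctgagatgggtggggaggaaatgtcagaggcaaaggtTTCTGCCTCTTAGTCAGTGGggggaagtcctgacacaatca
Ms4a4c, chr19:11407411-11407660, plus strand: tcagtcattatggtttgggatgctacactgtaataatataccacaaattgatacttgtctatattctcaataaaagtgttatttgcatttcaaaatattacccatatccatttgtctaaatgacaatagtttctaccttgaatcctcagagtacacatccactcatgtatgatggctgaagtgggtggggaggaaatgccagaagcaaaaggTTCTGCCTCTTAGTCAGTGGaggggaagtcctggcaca
Ms4a6b, chr19:11518309-11518558, plus strand: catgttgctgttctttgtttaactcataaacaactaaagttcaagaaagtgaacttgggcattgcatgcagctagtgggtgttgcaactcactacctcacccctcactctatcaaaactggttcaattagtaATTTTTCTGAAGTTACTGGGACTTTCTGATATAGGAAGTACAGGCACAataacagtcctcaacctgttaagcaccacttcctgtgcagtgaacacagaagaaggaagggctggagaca
Ms4a6c, chr19:11469118-11469367, plus strand: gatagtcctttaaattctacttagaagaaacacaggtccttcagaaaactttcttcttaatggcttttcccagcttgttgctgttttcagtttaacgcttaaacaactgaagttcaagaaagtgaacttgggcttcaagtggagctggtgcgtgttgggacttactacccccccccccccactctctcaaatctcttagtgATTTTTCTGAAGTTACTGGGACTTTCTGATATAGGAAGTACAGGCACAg

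The shared run of Ms4a6b and Ms4a6c is 48 bases long, and that of Ms4a4b and Ms4a4c 20 bases. It ends 2 bases before the start of Ms4a6c and 71 bases before the start of Ms4a6b, so the annotated starts are offset against the common sequence. Aligned over these windows, Ms4a6b and Ms4a6c were identical at 85.1% of 175 aligned bases and Ms4a4b and Ms4a4c at 80.1% of 231. The other pairs among the 5 members matched at 59.3% to 64.7% of aligned bases, with no common run over 9 bases. The member pairs with like sequence before the start did not have like levels, since Ms4a4b stood at 67.3 and Ms4a4c at 2.37 CPM per kilobase with Dox.

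Motifs were counted on both strands in the full window of 250 bases before to 50 bases after the start. TGGGAA, the core of Ikaros sites, occurred in 1 of the 5 members, Ms4a6c, on the minus strand with its match beginning 184 bases before the start, and in 25.6% of all 32851 windows. The shorter GGGAA, which lies within TGGGAA, occurred in 4 of 5 members, all but Ms4a6b, and in 62.7% of all windows. AGGAAGT, a form of the ETS factor site that was chosen after the sequences were seen, occurred once in Ms4a6c and at 2 places in Ms4a6b, and in 9.35% of all windows. In both genes 1 match lies in the shared run printed above. Matches and missing matches here describe letters in these windows and say nothing of binding.

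Along the chromosome, counts were confined to a compact block within the cluster. The 20 Ms4a genes in the table span 679 kb, chr19:10962289-11640851, and 13 of them had 0 counts in both libraries. The 7 with counts are neighbours from Ms4a4a to Ms4a6d, 229 kb in length, and all 9 genes listed inside that block had a count. Beside the 6 members these were Ms4a4a, with 10 counts with Dox and 0 untreated and a lower bound of 0.26 on the log2 ratio, BE692007, with 49 counts with Dox and 9 untreated, and Gm8369, with 21 counts with Dox and 1 untreated. BE692007 had a log2 ratio of 1.41 (0.50 to 2.75) and Gm8369 one of 2.40 (0.85 to 8.86). The genes at 0 included Ms4a7, known from macrophages, Ms4a3 of myeloid precursors and Ms4a2 of mast cells and basophils.

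Genes with at least 5 CPM nearest to the cluster were slightly lower before it and near 0 on the log2 scale after it. These were Ccdc86, whose start lies 502 kb before that of Ms4a4b, at -0.36 (-0.56 to -0.16), and Mrpl16, 327 kb after it, at 0.06 (-0.19 to 0.32). Within 1 Mb of the cluster, 72 further genes were listed and 24 of them passed 5 CPM, of which 3 were called higher and 3 lower. Of all 10113 genes past 5 CPM, 2.21% were called higher and 2.24% lower. The 3 higher neighbours lay side by side 654 to 725 kb before Ms4a4b. Cd5, an inhibitory receptor of T cells, had 1013 counts with Dox and 87 untreated and a ratio of 2.62 (2.32 to 2.97), its relative Cd6 had 2341 counts with Dox and 393 untreated and a ratio of 1.67 (1.52 to 1.83), and A430093F15Rik between them stood at 1.27 (0.62 to 2.10). The lower ones were Fads2, a fatty acid desaturase gene, at -2.38 (-3.02 to -1.92), Vwce at -1.80 (-2.32 to -1.39) and Tmem132a at -1.17 (-1.36 to -0.99). The block of Ms4a genes was thus separated from Cd5 and Cd6 by measured genes with lower or near-equal levels in the Dox library. Over the 27 further genes with at least 1 CPM in the mean, the median ratio was -0.01.

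**Figure D4:**
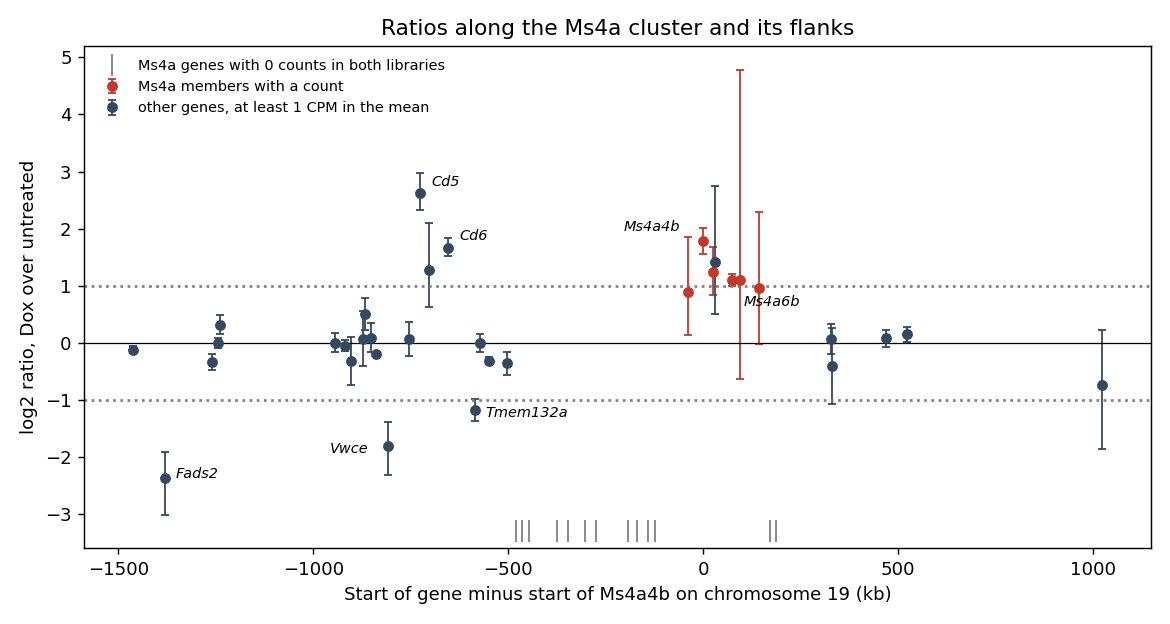
Log2 ratio of Dox over untreated against the distance of each gene's start from that of Ms4a4b in kb. Red points are Ms4a members with a count, dark points other genes past a mean of 1 CPM, bars are exact 95% counting intervals, ticks at the bottom mark 13 Ms4a genes with 0 counts in both libraries, and dotted lines mark 2-fold. The red points lie together between 0.90 and 1.78, and Cd5 and Cd6 form a separate high group to the left.

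Genes with levels most like those of the leading members were sought by the distance between log2 CPM in the 2 libraries, over 9618 named genes. Nearest to Ms4a6b were Sp100, a nuclear body protein gene, at a distance of 0.08 with a ratio of 1.18, Foxo1, a transcription factor of T cell quiescence, at 0.08 with a ratio of 1.19, and Aff4, a scaffold of transcription elongation, at 0.10 with a ratio of 0.95. Nearest to Ms4a4b were Crybg1 at 0.19 with a ratio of 1.58, P2rx7, an ATP-gated channel gene, at 0.27 with 1.43, and Slfn8 of the Schlafen family at 0.32 with 1.35. Likeness over 2 libraries is a likeness of levels only.

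Genes of naive and quiescent T cells, a state in which MS4A4B is abundant in mouse, stood higher on balance. Of 19 past a mean of 1 CPM, 5 stood at or over 2-fold higher and 0 at or over 2-fold lower, and the median log2 ratio was 0.52. Over all 11498 genes past 1 CPM the median was 0.01, with 2.91% past 2-fold upwards and 3.16% downwards. S1pr1, which lets lymphocytes exit lymphoid organs, had a ratio of 2.19 (1.95 to 2.46), the antiproliferative gene Tob1 one of 1.88 (1.55 to 2.27), Klf2, a factor that activates S1pr1, one of 1.76 (1.59 to 1.94) and Foxo1 one of 1.19 (1.09 to 1.30). These 4 were named for the largest absolute ratios of the list, whose measured genes ran from -0.79 to 2.19. Ms4a4b at 1.78 lay within the range of the 4, with a counting interval that overlapped those of S1pr1, Tob1 and Klf2. The T cell identity list had a median of 0.23, with 5 of 17 past 2-fold upwards and 0 downwards. Its largest ratio was that of Cd2 at 3.40 (3.09 to 3.77), and Cd8b1 stood at 1.27 (1.18 to 1.36). Genes of the receptor complex were split. Trac was higher at 1.05 (0.97 to 1.13), as was Cd247 at 0.78 (0.70 to 0.85). Smaller ratios above 0 were those of Trbc1, 0.19 (0.01 to 0.36), and Trbc2, 0.17 (0.13 to 0.20). Slightly lower were Cd3e, with -0.09 (-0.17 to -0.01), Cd3d, with -0.25 (-0.31 to -0.18), and Cd3g, with -0.28 (-0.35 to -0.21). Lck, which encodes a kinase, had a ratio of -0.21 (-0.25 to -0.18).

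The genes of GITR and related receptors differed less than Ms4a4b did. Tnfrsf18, which encodes GITR, had 149 counts or 10.5 CPM with Dox and 62 counts or 8.16 CPM untreated, a ratio of 0.35 (-0.08 to 0.81). Tnfsf18, the gene of its ligand, had 0 counts in both libraries. Cd27, another costimulatory receptor gene, stood at 0.64 (0.56 to 0.72), and 0 of 3 measured genes of this list were past 2-fold.

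Type I interferon genes also stood higher on balance, though some were lower. Of 17 past 1 CPM, 5 were past 2-fold upwards and 0 downwards, 9 past 1.5-fold upwards and 3 downwards, and the median was 0.61. Over all genes past 1 CPM, 7.54% were past 1.5-fold upwards and 8% downwards. Ifi27l2a stood at 1.99 (1.60 to 2.47), Irf7, which amplifies the interferon response, at 1.39 (1.12 to 1.70), the RNA sensor gene Ddx58 at 1.39 (1.19 to 1.60) and Ifit1 at 1.26 (0.68 to 1.97). Bst2 had a ratio of -0.87 (-1.09 to -0.65).

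Some Ms4a genes are also known from other blood cells, and markers of those cells were counted beside them. Of 17 macrophage, monocyte and neutrophil markers, 5 passed 1 CPM in the mean, and the list summed to 28.8 CPM with Dox and 22.0 CPM untreated. Of these 5, 4 were past 1.5-fold upwards and 2 past 2-fold, 1 was past 2-fold downwards, and the median was 0.88. Ccr2 stood at 1.45 (0.21 to 3.72) from 25 counts with Dox and 4 untreated, Ly6c2 at 1.37 (0.36 to 2.94) from 38 counts with Dox and 7 untreated, Cd68 at 0.88 (0.26 to 1.61), Itgam at 0.79 (0.39 to 1.23) and Lyz2 at -1.99 (-2.86 to -1.38). Csf1r had 8 counts with Dox and 4 untreated, Adgre1 had 5 with Dox and 2 untreated, and Elane, Mpo and S100a8 had 0 in both. The part of such cells in the counts of Ms4a6c and Ms4a6d was not tested. Of 9 dendritic and mast cell markers 2 passed 1 CPM, with sums of 13.6 CPM with Dox and 14.3 CPM untreated, and Cpa3 stood at -0.40 (-0.81 to 0.01). Of 7 NK cell markers 3 passed, with sums of 1745 CPM with Dox and 1061 CPM untreated that were almost wholly Gzma, at 0.72 (0.68 to 0.75). The other measured ones were past 2-fold upwards, with Prf1 at 2.19 (0.97 to 4.99) from 35 counts with Dox and 3 untreated and Nkg7 at 1.16 (0.22 to 2.51) from 41 counts with Dox and 9 untreated, and the median of the 3 was 1.16. In contrast, Ncr1, Klrk1 and Klrd1 had 0 counts in both libraries. The part of such cells in the Ms4a counts was not tested either.

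**Figure D5:**
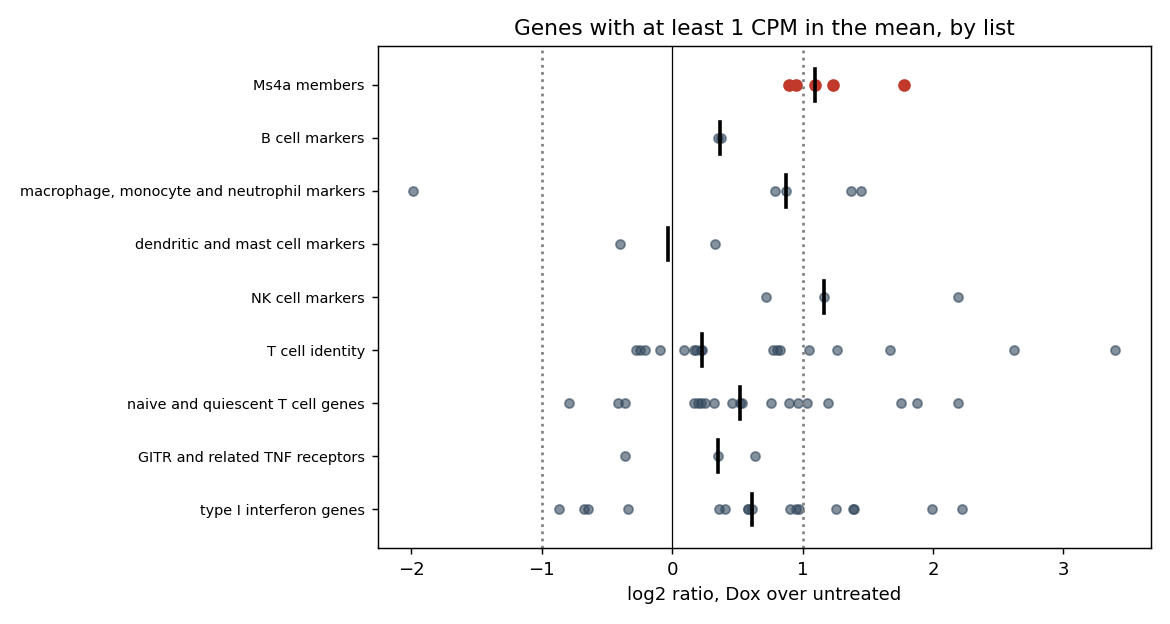
Log2 ratio of Dox over untreated for each gene past a mean of 1 CPM over the libraries. Rows are the Ms4a members (red) and the gene lists (dark), black bars are medians, and dotted lines mark 2-fold. The 5 Ms4a members shown lie between 0.90 and 1.78 with a median of 1.09, and the naive and quiescent T cell list has a median of 0.52.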

How the data were processed

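The deposited counts are whole reads per gene, with no normalization, for 1 library of Dox-treated and 1 of untreated mice. Per the submitters' processing notes, the tools were CASAVA 1.8.2 and featureCounts and the build mm10. The aligner, annotation, strand setting and treatment of shared reads are unknown from the sources used here. The labels' design speaks of 3 mice per group and 2 sequencing runs per RNA, and how these were combined is not given either. The files of each library and the series table differed in 0 values. The gene length deposited with the counts served for levels per kilobase.

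Symbols came from a RefSeq table (GRCm38.p6, which mm10 represents) for 25275 genes and from GENCODE for 18. Library sizes were scaled by TMM (edgeR 4.0.16, R 4.3.3), and log2 ratios of Dox over untreated used a prior count of 2. Folds are these ratios on the linear scale. Intervals of ratios are exact 95% Clopper-Pearson intervals of the Dox share of a gene's counts (no prior count), and those of levels are exact Poisson intervals. They cover counting error only. With 1 library per group there is no test and no p-value. The ratio code and the 2-fold rule were tested on simulated data.

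The members and lists were chosen with earlier results of these data known. The text names all members, Ms4a genes with a count, Ikzf1, neighbours past 2-fold and the nearest on each side, up to 4 genes per list with the largest ratios past 5 CPM in the higher library, and the 3 nearest genes in level for the leading members. BE692007, Gm8369, Bst2 and Lck were named after their values were seen. So were the Cd3 genes, Cd247, Trac, the Trbc genes and markers with few or no counts. DESeq2 1.42.0 size factors, total counts, other prior counts, other CPM minimums, interval bounds, thinning and other lengths were the alternatives. Protein sequences were not used here, and some single-gene results are not reported. Promoter windows came from RefSeq, transcripts from GENCODE, and alignments from biopython 1.88.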

Additional observations from a re-analysis of the deposited data

How the results depend on the processing

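The log2 ratios of the 6 members with counts kept their sign and stayed within their counting intervals in all 30 recomputations with total counts, DESeq2 size factors, a prior count of 0.5 or 5 and thinning of the Dox library to the untreated total. The ratio of Ms4a4b ranged from 1.73 to 1.80, Ms4a6b from 1.05 to 1.10, Ms4a6c from 1.19 to 1.25 and Ms4a4d from 0.61 to 1.41. The count of 3 members at least 2-fold higher fell to 1, Ms4a4b, when the interval bound had to pass 2-fold, since the intervals of Ms4a6b and Ms4a6c reach below it. It was 2 with a minimum of 20 CPM and 4, with Ms4a4d, with none. Members at least 2-fold lower numbered 0 under each alternative. Over all genes, 223 were higher and 227 lower. These became 407 and 440 with a minimum of 1 CPM, 129 and 104 with 20 CPM, 784 and 744 with none, because the minimum sets how many genes are counted, and 115 and 141 with the interval bound. Of the levels per kilobase recomputed with other lengths, 14 left their counting intervals and 10 did not. No paired analysis was possible because each group has 1 library. For Ms4a4d, Ms4a6d and Ms4a4a, depth limits what the counts can show.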

Other observations

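Runs of adjacent genes were counted over the genome, as a description chosen after the data were seen and with no test. Among genes with at least 1 CPM in the mean and in order of position, 7 runs of at least 4 neighbours were all at least 1.5-fold higher with Dox, and 2 such runs were all at least 1.5-fold lower. The run of Ms4a4c, Ms4a4b, Ms4a6c, BE692007, Ms4a6b and Ms4a6d was 6 genes long. The longest run, 8 genes, was the Gimap cluster on chromosome 6, and a run of 6 T cell receptor alpha variable segments lay on chromosome 14. Runs of 5 were formed by further T cell receptor alpha segments on chromosome 14 and by guanylate-binding protein genes with Abcg3 on chromosome 5. A run of 4 was formed by HIN-200 genes on chromosome 1. Such runs hold genes of like sequence, and the part of shared reads in them was not tested.

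Tmem176b and Tmem176a, membrane protein genes on chromosome 6 that are often grouped with the MS4A family, went the other way. Tmem176b had 7 counts with Dox and 22 untreated, a log2 ratio of -2.19, and Tmem176a had 5 counts with Dox and 10 untreated.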
